A study of Rattus norvegicus with 24 samples.

Results

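Abcc3, Slco1a4, Abcb1a and Abcb1 are names of liver membrane transporter genes, whose products move drugs, bile acids and conjugates across the hepatocyte surface. They are 4 of the 4876 gene names found on the array, although Abcb1 may be the same gene as Abcb1a or its neighbour Abcb1b, and were followed here in the livers of 24 treated rats. Every array probe was taken whose listed gene name or RefSeq record was one of these genes, older names included. That gave 10 probe IDs of the 21900 on the array, carrying 8 distinct oligos of 60 bases. Abcc3 had 2 probe IDs, Slco1a4 had 3, Abcb1a had 2 and Abcb1 had 3. All 10 passed the filter on dim probes, which kept 16085 probes.

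Hepatocytes take up organic anions from the blood, conjugate them, and export them across the canalicular face into bile or across the basolateral face back into blood. Abcc3, also called Mrp3, is a basolateral pump for glucuronides and bile acids, scarce in the healthy hepatocyte and known for its induction by xenobiotics and in cholestasis. Slco1a4, also called Oatp2 or Slc21a5, is a basolateral uptake carrier for organic anions and cardiac glycosides. Abcb1a and Abcb1b encode the rodent forms of P-glycoprotein (Mdr1), the canalicular pump for bulky hydrophobic drugs.

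The rats were male F344, an inbred strain, labelled as 5 weeks old, and were dosed daily by oral gavage at 5 ml/kg for 28 days. The 6 compounds were Hexachloroethane at 500 mg/kg/day, 1,2,3-Trichloropropane at 50, 1-Amino-2-methylanthraquinone at 150, 3-(4-Chlorophenyl)-1,1-dimethylurea (the herbicide monuron) at 250, 1,2-Dichlorobenzene at 300 and Tetracycline hydrochloride at 1000. Water was the vehicle of Tetracycline hydrochloride and corn oil that of the other 5 compounds. The series lists the first 4 compounds as carcinogens and 1,2-Dichlorobenzene and Tetracycline hydrochloride as non-carcinogens. Each compound had 4 treated rats, each hybridised alone in Cy3 against a single Cy5 pool of liver RNA from its vehicle controls.

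Each value is the log2 ratio of a treated rat over the vehicle pool, after background correction and loess normalization, so 1 is a doubling. The pool is 1 control sample, so the tests against vehicle leave out the spread among control rats. The tests between compounds leave it out too. No array had swapped dyes, so a dye effect of a probe and a treatment effect cannot be told apart against vehicle. A dye effect alike on all arrays cancels between compounds. Slide effects and compound effects cannot be told apart, since the arrays of a slide were all of 1 compound. Between 61.3% and 73.2% of probes were well above background in treated RNA, and between 65.5% and 77.7% in vehicle RNA. The 8 hepatocyte markers examined, among them Alb, were well above background in both dyes on all 24 arrays, and their median log2 ratio was between -0.63 and -0.27 over the 6 compounds. In whole liver, more cells of a type and more RNA per cell cannot be told apart.

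The oligos are shown because the gene names rest on them, and because oligos of the same gene name gave ratios of different size. Each line gives the first 30 bases, 5′ to 3′. Probe 703384 is given whole, in its 60 bases, since it had the lowest correlation with another oligo of the same name.
Abcc3, probe 500863: aaattctgcaaattgccttacagactagcc
Abcc3, probe 702366: cccgtactgcagtttttaagagaccctgct
Slco1a4, probes 14183 and 4183: gaccagatagaaagttcgatagaaagaact
Slco1a4, probe 700851: ggctattctcatattcagggggcttcaatg
Abcb1a, probe 668: ctgagtctagatccctagcacctatgtaag
Abcb1a, probe 704549: gtaaatatttgataatatatacttttattt
Abcb1, probes 14846 and 4846: tgagctgggagtatttgaggtgctaagtat
Abcb1, probe 703384: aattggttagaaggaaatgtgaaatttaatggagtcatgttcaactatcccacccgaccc
Probes 14183 and 4183 share all their letters, as do 14846 and 4846, so each couple repeats 1 measurement on the same array. The GC content was between 40% and 45% in 7 of the 8 oligos. It was 16.7% in Abcb1a probe 704549, lower than in all but 0.0594% of the probes on the array. The probes named Abcb1 cannot be assigned to 1 gene, because RefSeq lists Abcb1 as an older name of both Abcb1a and its neighbour Abcb1b. A further probe, 5069, has no gene name in the files but the same letters as Abcc3 probe 500863.

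For each transporter the kept probe with the highest mean signal is its representative: 702366 for Abcc3, 700851 for Slco1a4, 668 for Abcb1a and 4846 for Abcb1. A probe was called changed when limma's adjusted p was below 0.05 and the change was at least 2-fold. Of the 10 member probe IDs, 2 were called under Hexachloroethane, where 1.40% of all 16085 probes were. The count was 1 under 1,2,3-Trichloropropane against 1.24% of all probes. Under 1-Amino-2-methylanthraquinone, monuron and 1,2-Dichlorobenzene it was 4 each, against 2.65%, 1.87% and 2.01%. Under Tetracycline hydrochloride limma called 0 of the 10, against 0.317% of all probes. There 8 of the 10 had an unadjusted p below 0.05, which 54.7% of all probe values pooled over the 6 compounds had. Adjusted p alone also passed for 8 of the 10 there, against 37.3% of all probes under that compound. The 15 calls in all were increases of Abcc3 (9) and of Abcb1 (6). Adjusted p alone passed for 5, 3, 9, 7, 10 and 8 of the 10 member IDs, in the order of the doses listed. The shares of all probes were 50.3%, 46.0%, 59.1%, 46.6%, 52.4% and 37.3%, so values that passed it under 2-fold are given as levels and not as changes.

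Abcc3 transcript rose under 5 of the 6 compounds by probe 500863 and under 4 by probe 702366, and not by 2-fold under Tetracycline hydrochloride. Both oligos ranked the compounds alike, except that Hexachloroethane and 1-Amino-2-methylanthraquinone changed places at the top. The largest mean was 8.36-fold by probe 500863, under 1-Amino-2-methylanthraquinone. Tetracycline hydrochloride gave 1.31-fold on the same probe.

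Oligo 702366 read 1.70, 1.24, 1.29 and 1.41 (log2) in the Hexachloroethane rats. It read 1.63, 1.38, 1.14 and 1.24 under 1-Amino-2-methylanthraquinone. The 1,2-Dichlorobenzene rats read 1.38, 1.42, 1.15 and 1.07. These 12 rats lie in a common range, and the 3 groups overlap. The monuron rats read 1.12, 1.09, 1.07 and 1.31, at the lower end of the same range. The 1,2,3-Trichloropropane rats read 0.63, 0.57, 0.71 and 0.70, and the Tetracycline hydrochloride rats 0.46, 0.22, 0.24 and 0.17. These last 2 groups overlapped neither each other nor any other group, with all 24 rats above 0. As means, Abcc3 was 2.66-fold higher under Hexachloroethane (log2 1.41 ± 0.21, SD, n = 4, limma adjusted p = 9.84e-12). It was 2.54-fold higher under 1-Amino-2-methylanthraquinone (adjusted p = 1.05e-11), 2.39-fold under 1,2-Dichlorobenzene (4.33e-11) and 2.21-fold under monuron (3.31e-10). Under 1,2,3-Trichloropropane it was 1.57-fold (9.52e-07), short of 2-fold, and under Tetracycline hydrochloride 1.21-fold (0.00807).

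Oligo 500863 gave larger ratios in the same rats. It read 3.06, 2.76, 2.74 and 2.98 under Hexachloroethane, 3.70, 3.10, 2.66 and 2.80 under 1-Amino-2-methylanthraquinone, and 2.96, 3.05, 2.64 and 2.31 under 1,2-Dichlorobenzene. The monuron rats read 2.49, 2.40, 2.48 and 2.66. Again these 4 groups overlapped in part and stood above the remaining 2. The 1,2,3-Trichloropropane rats read 1.56, 1.17, 1.54 and 1.49, and the Tetracycline hydrochloride rats 0.71, 0.20, 0.42 and 0.23. With this oligo 1,2,3-Trichloropropane passed 2-fold (2.71-fold, log2 1.44 ± 0.18, SD, n = 4, adjusted p = 3.47e-08), so the call for that compound differs between the Abcc3 oligos. The probe was well above background in treated RNA on 24 arrays and in vehicle RNA on 21. The unnamed probe 5069, with the same letters, read 2.91, 1.49, 3.19, 2.55, 2.83 and 0.33 as means of the 6 compounds, in the order in which the doses are listed above. The oligos 500863 and 702366 ranked the rats alike (Pearson r = 0.98, Spearman rho = 0.97 over 24 arrays, a description), and their median distance was 1.36 log2 units.

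**Figure D1:**
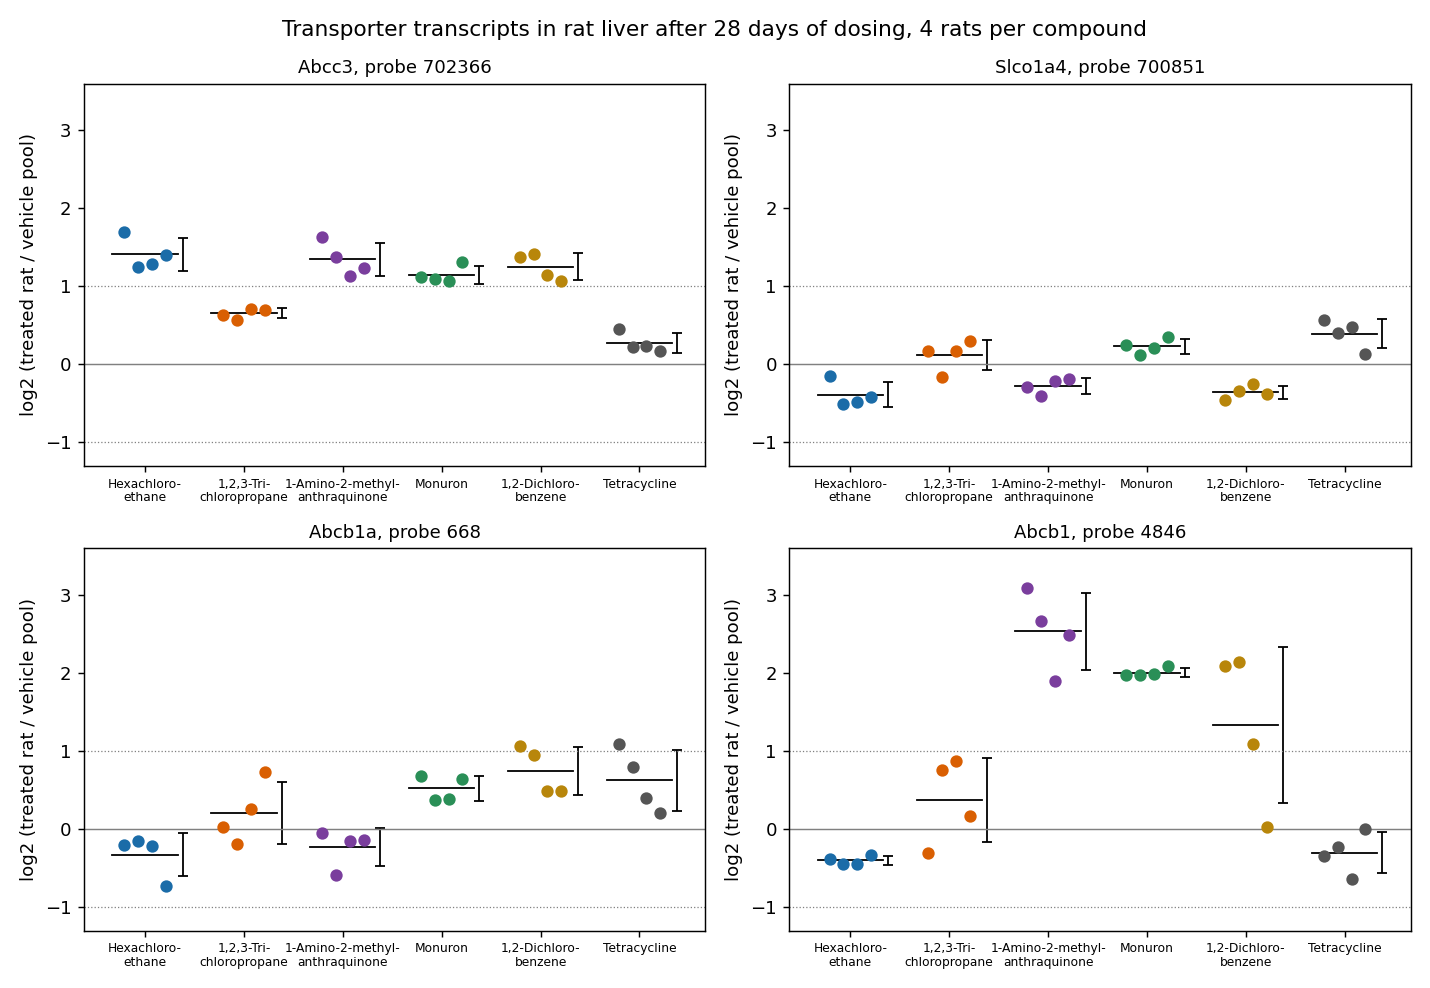
Each point is 1 rat, placed by compound, and its height is the log2 ratio of treated liver over the vehicle pool for the representative probe of each transporter; bars are means of 4 rats, brackets SD, and dotted lines mark 2-fold. Abcc3 lies between 1.07 and 1.70 under 4 compounds, and Abcb1 spreads from 0.03 to 2.14 under 1,2-Dichlorobenzene.

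The size of the Abcc3 ratio depended on how the arrays were corrected. Over the settings tried on all 24 arrays the mean of 500863 under Hexachloroethane ran from 2.42, with the raised local backgrounds of rat 2 left as given, to 4.01, with the scanner's own log ratio. Under 1,2,3-Trichloropropane it ran from 1.44 to 2.82. With median centring in place of loess, probe 702366 fell short of 2-fold under 1-Amino-2-methylanthraquinone (0.84), monuron (0.76) and 1,2-Dichlorobenzene (0.92). Its Tetracycline hydrochloride mean was then -0.017. The means under the other 5 compounds stayed above 0 in both oligos under every setting tried.

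Differences between compounds were tested on the same fit, as dosed, since doses and vehicles differ. Of the 15 pairs, 9 differed for Abcc3 probe 702366 and 10 for 500863 at an adjusted p below 0.05, a threshold passed in 33.7% of all probe and pair combinations. Tetracycline hydrochloride was below each of the other 5 compounds, by 0.38 (against 1,2,3-Trichloropropane, adjusted p = 0.00908) to 1.14 (against Hexachloroethane, 2.36e-07) on probe 702366. 1,2,3-Trichloropropane was below the 4 highest compounds, with differences from -0.49 (minus monuron, adjusted p = 0.0023) to 0.76 (Hexachloroethane minus 1,2,3-Trichloropropane, 1.64e-05). None of the 6 pairs among Hexachloroethane, 1-Amino-2-methylanthraquinone, 1,2-Dichlorobenzene and monuron passed on this probe. Their 95% intervals reached at most 0.49 log2 units, for Hexachloroethane over monuron (difference 0.26, interval 0.04 to 0.49, adjusted p = 0.0704). On probe 500863 1-Amino-2-methylanthraquinone was above monuron by 0.55 (adjusted p = 0.0194). At least 2-fold differences numbered 9 on probe 500863 and 2 on 702366, where 1.73% of all combinations passed.

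Slco1a4 did not change by 2-fold under any compound as normalized here, but it separated the compounds into 2 groups. It was lower under Hexachloroethane, 1-Amino-2-methylanthraquinone and 1,2-Dichlorobenzene than under 1,2,3-Trichloropropane, monuron and Tetracycline hydrochloride. The 2 groups were drawn from these same means, so the tests across them are a description. All 9 differences across them passed an adjusted p below 0.05 on probe 700851, a threshold passed in 33.7% of all probe and pair combinations. limma called 0 of 18 values (3 probe IDs, 6 compounds). Of the 18, 13 had an unadjusted p below 0.05, against 54.7% of the values of all probes.

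On probe 700851, Slco1a4 read -0.15, -0.50, -0.48 and -0.42 in the Hexachloroethane rats and -0.29, -0.40, -0.21 and -0.19 in the 1-Amino-2-methylanthraquinone rats. The 1,2-Dichlorobenzene rats read -0.46, -0.33, -0.25 and -0.38. All 12 of these rats were below 0. The 1,2,3-Trichloropropane rats read 0.17, -0.16, 0.18 and 0.30, and rat 2 fell among the lower groups. The monuron rats read 0.25, 0.13, 0.21 and 0.35, and the Tetracycline hydrochloride rats 0.57, 0.41, 0.48 and 0.13. These 8 rats were all above 0, and above all rats of the 3 low groups. The means were 0.76-fold under Hexachloroethane (log2 -0.39 ± 0.16, SD, n = 4, adjusted p = 0.000108), 0.83-fold under 1-Amino-2-methylanthraquinone (0.00216) and 0.78-fold under 1,2-Dichlorobenzene (0.000241). They were 1.09-fold under 1,2,3-Trichloropropane (0.165), 1.18-fold under monuron (0.00936) and 1.31-fold under Tetracycline hydrochloride (0.000168).

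The other Slco1a4 oligo, read by probes 14183 and 4183, gave the same 2 groups at slightly lower values. On 14183 the means were -0.52, -0.60 and -0.47 for Hexachloroethane, 1-Amino-2-methylanthraquinone and 1,2-Dichlorobenzene. They were 0.06, 0.10 and 0.26 for 1,2,3-Trichloropropane, monuron and Tetracycline hydrochloride. Its identical partner 4183 differed from it by a median of 0.01 log2 units over 24 arrays (r = 0.998). Against 700851 the correlation of 14183 was 0.972.

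The sign of Slco1a4 against vehicle depended on the scaling. Under median centring the 700851 means were negative for all 6 compounds, from -1.04 under 1-Amino-2-methylanthraquinone to -0.14 under Tetracycline hydrochloride. 1-Amino-2-methylanthraquinone then passed the 2-fold threshold. The other oligo also went beyond 2-fold under that compound, to -1.299 on 14183 and -1.278 on 4183. Under Hexachloroethane it read -1.010 on 4183, just beyond 2-fold, and -0.9997 on 14183, just short of it. On 700851 the low group stayed low under median centring: -0.90, -1.04 and -0.84 against -0.50, -0.39 and -0.14. The difference between Hexachloroethane and Tetracycline hydrochloride, both scanned on the same day, was -0.78 (95% interval -0.99 to -0.58, adjusted p = 1.19e-05). That between monuron and 1,2-Dichlorobenzene, also scanned on 1 day, was 0.59 (0.38 to 0.80, adjusted p = 0.000189). Within the low group no pair passed, and the widest interval limit was -0.32, for Hexachloroethane minus 1-Amino-2-methylanthraquinone. Within the high group 1,2,3-Trichloropropane minus Tetracycline hydrochloride was -0.27 (adjusted p = 0.0372).

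**Figure D2:**
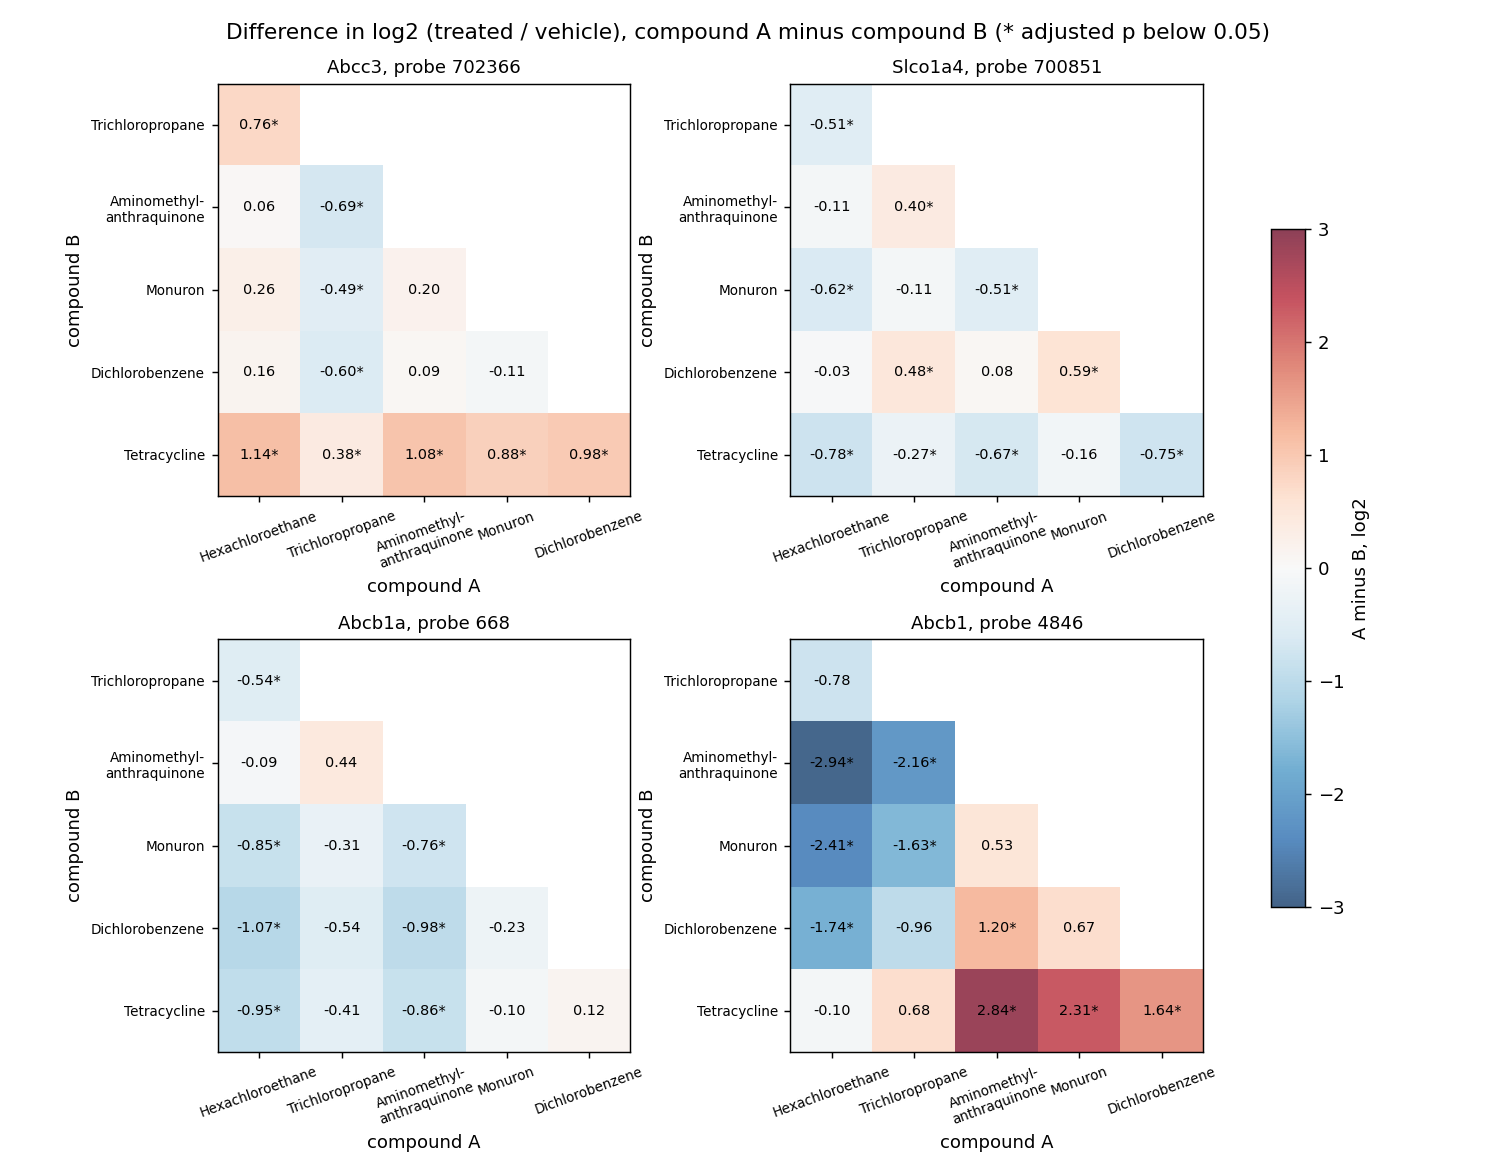
Each cell is the difference in mean log2 ratio between 2 compounds, compound A (column) minus compound B (row), for the representative probe of each transporter; red is higher in the column compound, blue lower, and an asterisk marks an adjusted p below 0.05. Abcc3 separates Tetracycline hydrochloride and 1,2,3-Trichloropropane from the rest, and Abcb1 gives the widest differences, down to -2.94.

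Abcb1a did not change by 2-fold under any compound as normalized here. On probe 668 its values were highest under 1,2-Dichlorobenzene, Tetracycline hydrochloride and monuron and lowest under Hexachloroethane and 1-Amino-2-methylanthraquinone. limma called 0 of 12 values (2 probe IDs, 6 compounds). Of the 12, 7 had an unadjusted p below 0.05, against 54.7% of the values of all probes. Compounds with high Abcc3 stood at both ends of the Abcb1a order.

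On probe 668, Abcb1a read 1.06, 0.96, 0.49 and 0.48 in the 1,2-Dichlorobenzene rats and 1.09, 0.80, 0.40 and 0.21 in the Tetracycline hydrochloride rats. The monuron rats read 0.68, 0.38, 0.39 and 0.65. These 3 groups overlap and hold no rat below 0. The Hexachloroethane rats read -0.20, -0.16, -0.21 and -0.73, and the 1-Amino-2-methylanthraquinone rats -0.05, -0.59, -0.15 and -0.14. All 8 of these rats were below 0. The 1,2,3-Trichloropropane rats, at 0.03, -0.18, 0.26 and 0.74, spanned both sides. The means were 1.68-fold under 1,2-Dichlorobenzene (log2 0.75 ± 0.31, SD, n = 4, adjusted p = 0.000192), 1.54-fold under Tetracycline hydrochloride (0.00184) and 1.44-fold under monuron (0.00539). Under Hexachloroethane the mean was 0.80-fold (adjusted p = 0.0668), under 1-Amino-2-methylanthraquinone 0.85-fold (0.172) and under 1,2,3-Trichloropropane 1.16-fold (0.242).

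Of the 15 pairs, 7 differed for Abcb1a probe 668, and 1 of these by 2-fold or more: Hexachloroethane minus 1,2-Dichlorobenzene was -1.07 (adjusted p = 0.000385). Hexachloroethane minus Tetracycline hydrochloride, scanned the same day, was -0.95 (adjusted p = 0.00218). Before correction, probe 668 read 521 to 645 units in the Hexachloroethane rats and 504 to 722 in the Tetracycline hydrochloride rats. Their vehicle pools read 1309 to 1366 and 743 to 798. A difference between pools and one between compounds cannot be told apart here. 1-Amino-2-methylanthraquinone minus 1,2-Dichlorobenzene was -0.98 (adjusted p = 0.000545). Monuron minus 1,2-Dichlorobenzene, scanned on 1 day, was -0.23 with an interval from -0.65 to 0.20 (adjusted p = 0.463).

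The second Abcb1a oligo, 704549, was well above background in treated RNA on 8 of 24 arrays and in vehicle RNA on 12. Under 1,2,3-Trichloropropane and monuron neither side was above background on any array, so no ratio is read there. Under 1-Amino-2-methylanthraquinone treated RNA was not well above background on any array, and vehicle was at least 1.16-fold higher. limma's adjusted p there, 0.000214, is for the mean ratio of -0.38 and not for this bound. Under 1,2-Dichlorobenzene vehicle was not well above background on any array and treated RNA was on 2 of 4. The treated mean lay 1.06-fold above the lowest vehicle signal well above background. It includes arrays where treated RNA was dim, so this is not a bound. The adjusted p of 0.00325 is for the mean ratio of 0.29. A bound sets the measured group against the lowest signal among probes well above background. The bound and the 1.06-fold value have the direction of probe 668, but the sign under 1-Amino-2-methylanthraquinone turned with median centring (0.17). With the scanner's own log ratio this oligo passed 2-fold under 1-Amino-2-methylanthraquinone (-2.24) and 1,2-Dichlorobenzene (1.01), each with 1 dye not well above background on any array.

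Abcb1 rose on probe 4846 under 1-Amino-2-methylanthraquinone, monuron and 1,2-Dichlorobenzene and not under the other 3 compounds, as normalized here. The increase was 5.81-fold under 1-Amino-2-methylanthraquinone, 4.02-fold under monuron and 2.53-fold under 1,2-Dichlorobenzene on probe 4846. Under Hexachloroethane, where Abcc3 rose, probe 4846 was below the vehicle pool in all 4 rats without passing the test, and the second oligo, 703384, was above it in 3 of 4. Before correction, the Hexachloroethane pool read 1001 to 1048 units on probe 4846, and the pools of the other compounds 606 to 861. The 1,2-Dichlorobenzene rats ranged from level with the pool to the level of the monuron rats.

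On probe 4846, Abcb1 read 3.09, 2.67, 1.90 and 2.49 in the 1-Amino-2-methylanthraquinone rats and 1.97, 1.98, 1.99 and 2.09 in the monuron rats. The monuron rats lay closest together. The 1,2-Dichlorobenzene rats read 2.09, 2.14, 1.09 and 0.03, so rats 1 and 2 were in or above the monuron range and rat 4 was level with the pool. The 1,2,3-Trichloropropane rats read -0.30, 0.76, 0.87 and 0.18. The Hexachloroethane rats read -0.38, -0.45, -0.45 and -0.32, and the Tetracycline hydrochloride rats -0.34, -0.23, -0.64 and 0.00. Both these groups lay below every monuron and 1-Amino-2-methylanthraquinone rat. On the partner probe 14846 the highest Tetracycline hydrochloride rat (-0.0075) and the lowest 1,2-Dichlorobenzene rat (-0.013) overlapped. The means were 2.54 ± 0.49 (SD, n = 4, adjusted p = 2.02e-08) under 1-Amino-2-methylanthraquinone and 2.01 ± 0.05 (1.19e-06) under monuron. The mean was 1.34 ± 1.00 (0.000102) under 1,2-Dichlorobenzene. Adjusted p was 0.178 under Hexachloroethane, 0.216 under 1,2,3-Trichloropropane and 0.35 under Tetracycline hydrochloride. The partner probe 14846 differed from 4846 by a median of 0.04 log2 units (r = 0.999), with means of 2.54, 1.95 and 1.32 under the 3 compounds.

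The 1,2-Dichlorobenzene rats kept a common order in several of the transporter probes. Rats 1 and 2 were above rats 3 and 4 for both Abcb1 oligos, for Abcb1a probe 668 and for both Abcc3 oligos. Slco1a4 probe 700851 did not keep this order (-0.46, -0.33, -0.25 and -0.38). Without rat 4 the Abcb1 mean of probe 4846 was 1.77, and without rat 2 it was 1.07, still called. In the same rats 1 to 4 the mean of 18 measured Nrf2 target genes was 1.67, 1.68, 1.42 and 1.25. The mean of 5 measured AhR target genes was 0.86, 0.93, 0.65 and 0.69. For 13 measured targets of CAR and PXR it was 0.37, 0.41, 0.23 and 0.13. For the 8 hepatocyte markers it was -0.77, -0.65, -0.55 and -0.54, lowest in rat 1. Their part in the spread of Abcb1 was not tested.

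The second oligo of Abcb1, 703384, gave smaller ratios as normalized here. It read -0.02, 0.23, 0.16 and 0.05 under Hexachloroethane, with both dyes well above background on all 4 arrays. It read 1.11, 1.12, 0.58 and 0.31 under 1,2-Dichlorobenzene, again lowest in rat 4, and 0.60, 0.86, 0.82 and 0.89 under monuron. Under 1-Amino-2-methylanthraquinone it read 0.81, 0.55, 0.37 and 0.44, whereas 4846 had its highest mean under that compound. None of its 6 means reached 2-fold under loess, at 0.79 for monuron (adjusted p = 1.29e-06), 0.78 for 1,2-Dichlorobenzene (9.51e-07) and 0.54 for 1-Amino-2-methylanthraquinone (6.11e-05). It was well above background in vehicle RNA on 14 of 24 arrays. Under monuron vehicle was not well above background on any array, so its ratios there have no order with those of the other compounds, and treated RNA was at least 1.52-fold higher. The scanner's own log ratio gave a larger value for this probe under 1,2-Dichlorobenzene (1.87), where vehicle was well above background on 2 of 4 arrays. The oligos 4846 and 703384 correlated at r = 0.80 over 24 arrays, those with vehicle RNA not well above background included.

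**Figure D3:**
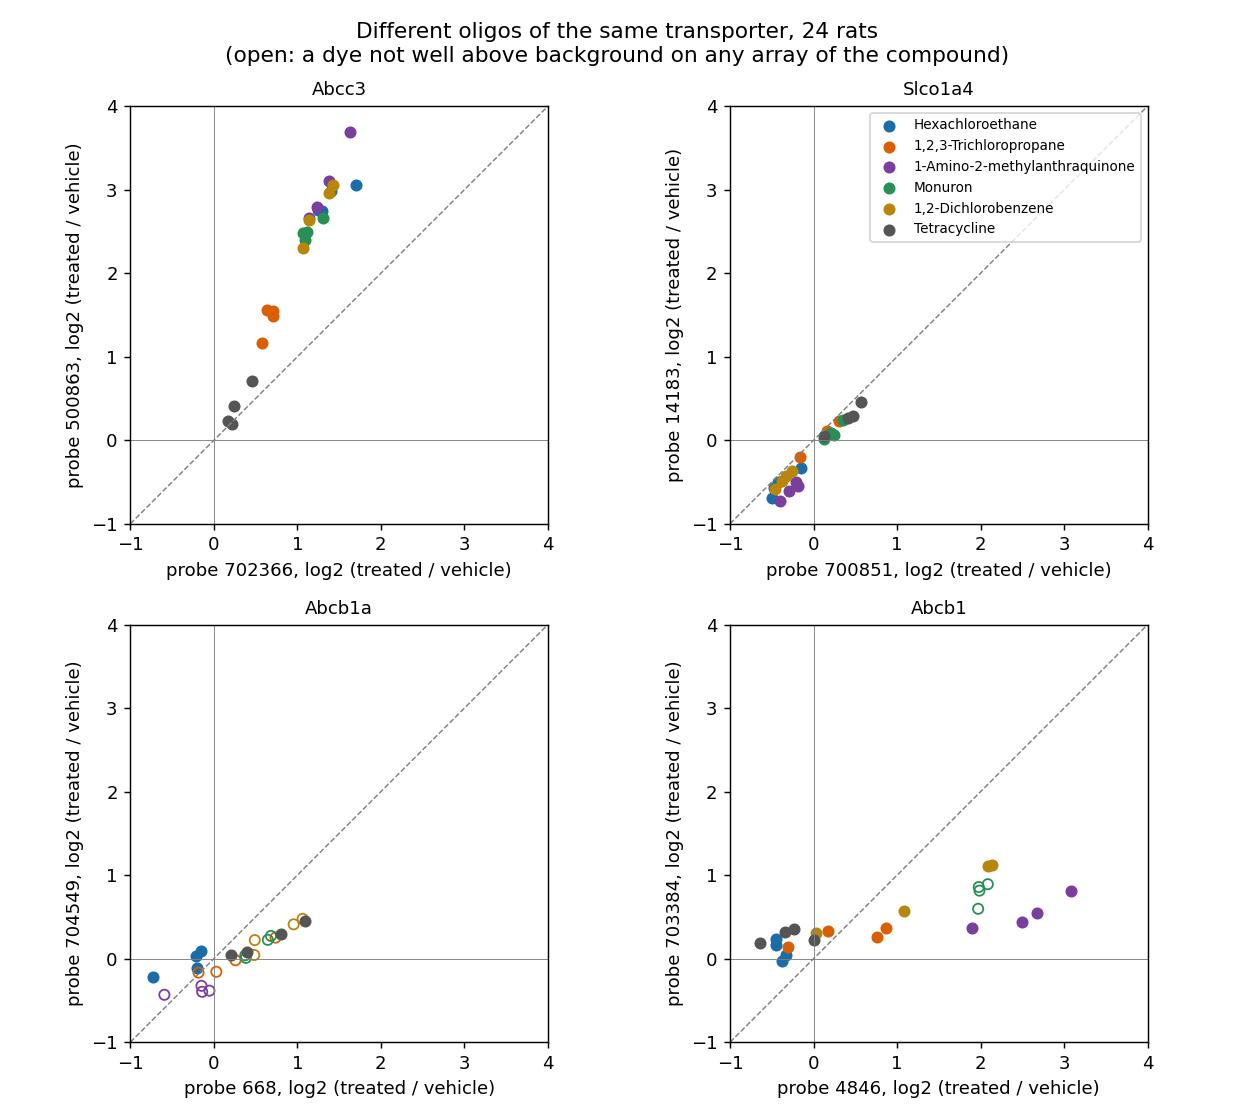
Each point is 1 of 24 rats. The axes are the log2 ratios of 2 different oligos listed under the same gene name, and colours are compounds. Open points mark compounds where a dye was not well above background on any array for 1 of the oligos. The dashed line marks equal values. Abcc3 probe 500863 lies well above the line (r = 0.98), and Abcb1 probe 703384 stays at or below 1.12 where probe 4846 reaches 3.09.

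For Abcb1 probe 4846, 9 of 15 pairs differed, all 9 by 2-fold or more. Hexachloroethane minus 1-Amino-2-methylanthraquinone was -2.94 (95% interval -3.65 to -2.22, adjusted p = 1.22e-06). 1-Amino-2-methylanthraquinone was above Tetracycline hydrochloride by 2.84 (1.58e-06) and above 1,2-Dichlorobenzene by 1.20 (0.00694). Hexachloroethane minus monuron was -2.41 (adjusted p = 3.44e-05), and 1,2,3-Trichloropropane minus monuron was -1.63 (0.00166). 1-Amino-2-methylanthraquinone and monuron differed by 0.53 with an interval from -0.18 to 1.24 (adjusted p = 0.226). Monuron and 1,2-Dichlorobenzene differed by 0.67, interval -0.04 to 1.38 (0.165). Hexachloroethane minus Tetracycline hydrochloride was -0.10, interval -0.81 to 0.61 (0.871). Neither pair scanned on 1 day thus passed for Abcb1. Before correction, treated rats read 481 to 514 units under Hexachloroethane and 403 to 463 under Tetracycline hydrochloride, and the Hexachloroethane pool read highest of the pools. A difference between pools and one between compounds cannot be told apart here.

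Markers of other liver cell types moved under 2 of these compounds. Under 1-Amino-2-methylanthraquinone 4 of the 5 measured bile duct markers rose, Epcam by 2.11, Spp1 by 1.72, Muc1 by 1.47 and Krt19 by 1.47 (log2), while Krt7 was at -0.03. The summed signal of the 5 genes was 8838 to 13526 units in the treated rats and 3468 to 3725 in the vehicle pool. Their part in the Abcb1 increase under this compound was not tested. None of the 5 was called under monuron or 1,2-Dichlorobenzene, where Abcb1 rose too, though Epcam read 0.74 and 0.93 there. Under monuron both measured red cell precursor genes rose, Hbb by 1.64 and Alas2 by 1.13. Their summed signal was 59105 to 84313 units in treated rats and 23103 to 23563 in the pool, and their part in the transporter values was not tested.

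The members did not move as 1 set. Across 24 arrays and on the representative probes, Abcc3 and Slco1a4 had r = -0.69, Abcc3 and Abcb1 0.50, and Slco1a4 and Abcb1a 0.51. Abcb1a and Abcb1 had r = 0.05. These are descriptions over arrays that share their compound's pool and slide. Of the compounds with high Abcc3, 3 had low Slco1a4 (Hexachloroethane, 1-Amino-2-methylanthraquinone, 1,2-Dichlorobenzene), and monuron did not.

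The design text of the series divides the compounds into 4 that cause tumours and 2 that do not. In a fit that treats the compound as a random block, the class difference of Abcc3 was 0.38 on probe 702366 (SE 0.23) and 0.91 on 500863 (SE 0.45), carcinogens higher. The difference, carcinogens minus the others, was -0.64 for Abcb1a (SE 0.32), -0.10 for Slco1a4 (SE 0.20) and 0.61 for Abcb1 (SE 0.69). The adjusted p was 1 for all 10 member probes, and limma called 0 of 16085 probes (0.00%), with 244 (1.52%) at an unadjusted p below 0.05. The 1,2-Dichlorobenzene values lay among the carcinogens for Abcc3 and far from Tetracycline hydrochloride. Within the 2 scan days that held both classes, Abcc3 on 702366 was 1.14 higher under Hexachloroethane than under Tetracycline hydrochloride, and monuron minus 1,2-Dichlorobenzene was -0.11.

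The efflux and organic anion uptake lists held 20 other measured transporters, and limma called 0 of their 120 values under loess, where 1.58% of all probe values were called. The calls depended on the scaling. Under median centring, where 5.03% of all probe values were called, 14 of the 120 were called, all lower and 7 of them under 1-Amino-2-methylanthraquinone. Those 7 ran from -1.06 for Abcb11 to -1.63 for Slc22a8, an organic anion carrier. With the scanner's own log ratio 2 were called, Slco3a1 under 1,2,3-Trichloropropane (-1.11) and Slc22a6 under monuron (-1.32), named here after their values were seen. Abcc4, a basolateral pump for conjugates, read 0.39 under Hexachloroethane, 0.37 under 1,2-Dichlorobenzene, 0.23 under monuron and 0.22 under 1-Amino-2-methylanthraquinone. Its values under 1,2,3-Trichloropropane and Tetracycline hydrochloride were -0.14 and 0.04. These 2 compounds had the lowest Abcc3 as well. The Abcc4 signs held under median centring and with the scanner's ratio. Abcc2, the canalicular pump for conjugates, ran from -0.42 under 1-Amino-2-methylanthraquinone to 0.19 under Hexachloroethane. Abcg2, a canalicular pump for sulfates and drugs, was lowest under 1-Amino-2-methylanthraquinone at -0.65, where Abcb1 was highest.

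The phospholipid flippase Abcb4, encoded beside Abcb1a and Abcb1b, read 0.68 under 1-Amino-2-methylanthraquinone (adjusted p = 0.000558) with an SD of 0.64. The bile salt export pump Abcb11 was highest under Tetracycline hydrochloride at 0.45. Under median centring all Abcb11 and Abcc2 means were negative, and the Abcb4 mean under 1-Amino-2-methylanthraquinone was 0.10.

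None of the 11 other organic anion uptake genes measured was called by limma under any compound with loess, with 39 of their 66 values (59.1%) at an unadjusted p below 0.05, against 54.7% of the values of all probes. Slco1a1, the male-predominant uptake carrier, read -0.56, -0.78 and -0.52 under Hexachloroethane, 1-Amino-2-methylanthraquinone and 1,2-Dichlorobenzene. It read -0.09, -0.13 and 0.15 under 1,2,3-Trichloropropane, monuron and Tetracycline hydrochloride, the grouping that Slco1a4 had. Slco1a6 read -0.51, -0.66 and -0.58 against -0.20, 0.22 and 0.25 in the same order. Slco1b2, the main liver-specific carrier of the family, read -0.53, -0.51 and -0.42 under 1,2,3-Trichloropropane, 1,2-Dichlorobenzene and 1-Amino-2-methylanthraquinone, and 0.13 under Hexachloroethane. Slc10a1, the sodium-dependent bile acid carrier, was lowest under 1-Amino-2-methylanthraquinone at -0.50 and highest under Tetracycline hydrochloride at 0.36. Under median centring Slco1a1, Slco1a6, Slco1b2 and Slc10a1 were negative under all 6 compounds.

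Of 13 measured regulators of these transporters, Nr0b2, a bile acid-responsive corepressor, alone was called, under Hexachloroethane at 1.28 ± 1.01 (SD, n = 4). Genes known to respond to the nuclear factors Nrf2, AhR, CAR and PXR are given here as lists. The lists share genes, so their counts are not separate. Nqo1 is on the Nrf2 and AhR lists, and Gsta2 and Ephx1 are on the Nrf2 list and that of CAR and PXR. Of all probes, 1.40%, 1.24%, 2.65%, 1.87%, 2.01% and 0.317% were called in either direction, in the order of the doses listed. Of 18 measured Nrf2 targets, 5, 6, 6, 5, 8 and 1 rose under the 6 compounds in the order of the doses listed. Median changes over that list were 0.52, 0.39, 0.40, 0.71, 0.89 and 0.06, against -0.02 to -0.01 over all probes. Nqo1, a quinone reductase, rose under the 5 compounds under which Abcc3 probe 500863 was called, by 1.25, 1.03, 1.76, 1.60 and 2.39. Of 5 measured AhR targets, 2, 1, 3, 3, 3 and 0 rose in the same order, and 1, the monooxygenase Cyp1a2, fell under 1,2-Dichlorobenzene (-1.19). Cyp1a1, a monooxygenase, rose by 3.24 under Hexachloroethane, 5.01 under 1-Amino-2-methylanthraquinone, 2.77 under monuron and 1.91 under 1,2-Dichlorobenzene. Of 13 measured CAR and PXR targets, 5 rose under Hexachloroethane, 5 under monuron, 4 under 1,2-Dichlorobenzene, 3 under 1-Amino-2-methylanthraquinone and 1 each under 1,2,3-Trichloropropane and Tetracycline hydrochloride. Cyp3a9, a monooxygenase of the same list, was the 1 gene of the list that fell, to -3.91 under 1-Amino-2-methylanthraquinone, -3.26 under 1,2-Dichlorobenzene, -2.08 under 1,2,3-Trichloropropane and -1.70 under monuron. Ugt2b1, a glucuronosyltransferase, rose by 2.44 under Hexachloroethane, 2.36 under 1,2-Dichlorobenzene, 2.12 under monuron, 1.29 under 1,2,3-Trichloropropane and 1.01 under Tetracycline hydrochloride. The part of these genes in the transporter values was not tested.

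The genes whose ratios were most like each member's were ranked by Pearson r over the 24 arrays, as a description. For Abcc3 they were Samd7 (0.950), Gpx2 (0.947), Zdhhc2 (0.914), Anxa7 (0.913) and Nap1l1 (0.909). Gpx2, a selenium-dependent peroxidase, read 2.48, 1.12, 2.78, 2.52, 2.40 and 0.33 over the 6 compounds in the order listed above, lowest under Tetracycline hydrochloride as Abcc3 was. For Slco1a4 they were Slco1a6 (0.921), Nit2 (0.855), Larp1b (0.851), Mme (0.843) and Abca6 (0.832). Mme, the membrane protease neprilysin, read -1.96 under Hexachloroethane, -1.17 under 1-Amino-2-methylanthraquinone, -2.06 under 1,2-Dichlorobenzene, -0.88 under 1,2,3-Trichloropropane, -0.64 under monuron and 0.05 under Tetracycline hydrochloride. For Abcb1a they were Adcy9 (0.848), Rb1 (0.843), Ikzf5 (0.815), Akap5 (0.814) and Gsto1 (0.800), none of them at 2-fold under any compound. For Abcb1 they were Mgmt (0.915), Selenow (0.853), Lgals8 (0.848), Ywhaq (0.844) and Epb41l1 (0.831). Mgmt, which repairs alkylated guanine, read 0.62 under 1-Amino-2-methylanthraquinone and 0.73 under monuron, and 0.11 under 1,2-Dichlorobenzene.

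**Figure D4:**
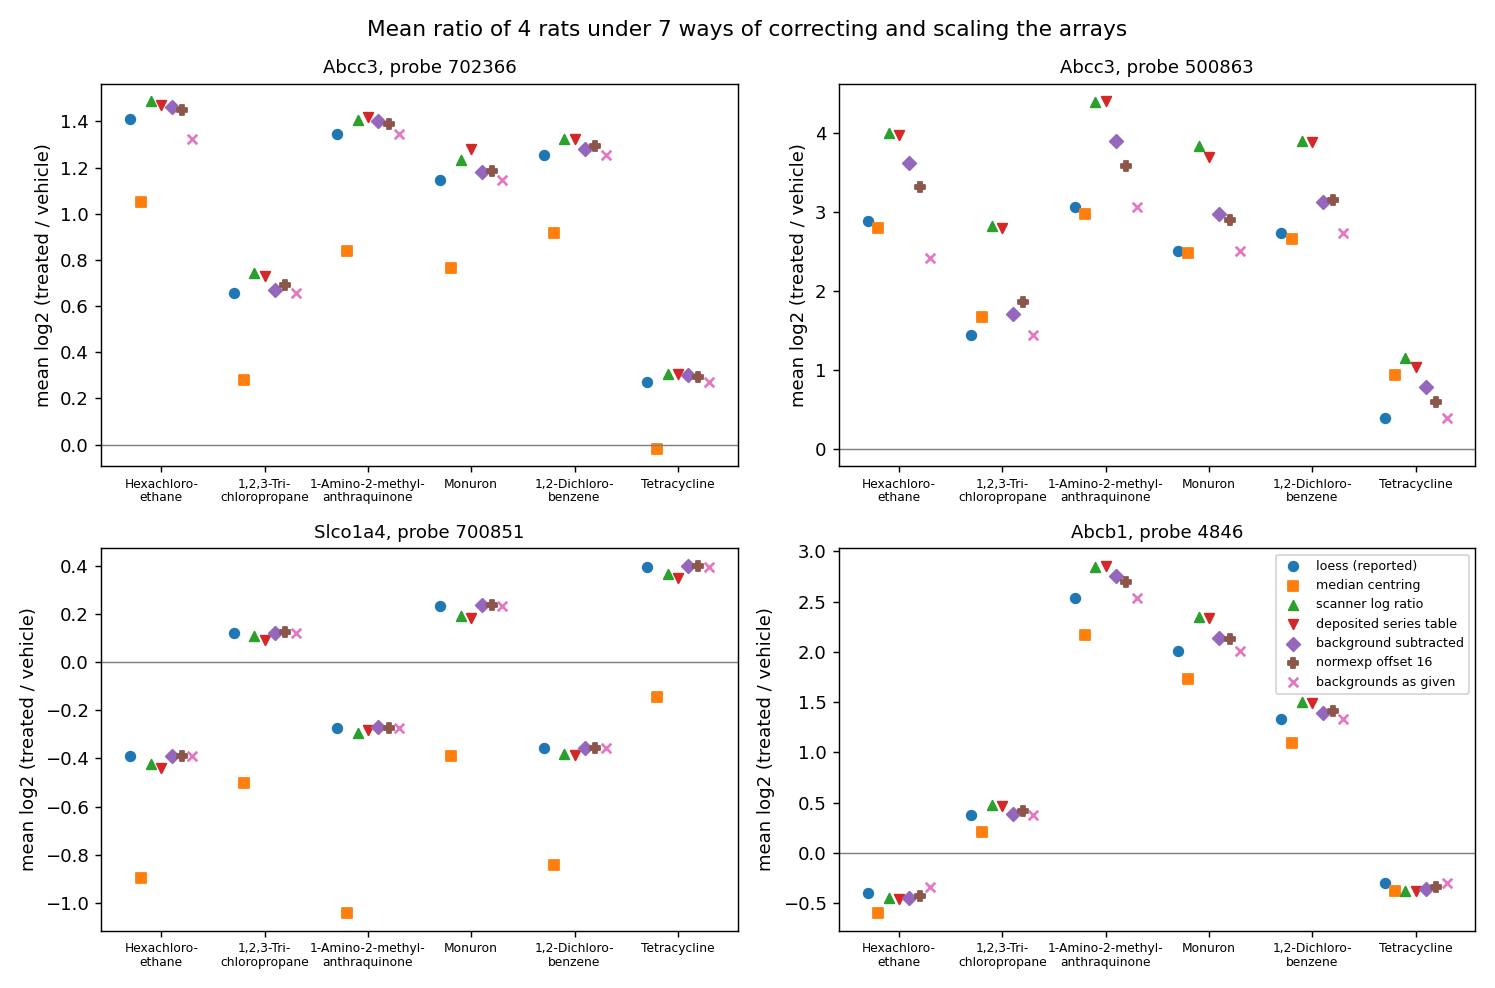
Points are mean log2 ratios of 4 rats for 4 member probes, by compound, under 7 ways of correcting and scaling the arrays, each with its own marker. Median centring lowers Slco1a4 to below 0 for all 6 compounds (-1.04 to -0.14). The low compounds stay below the high ones, but their order changes, with 1-Amino-2-methylanthraquinone then lowest. Abcc3 probe 500863 reaches 4.41 under 1-Amino-2-methylanthraquinone in the deposited series table.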

How the data were processed

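Liver RNA of 24 treated rats was measured against pooled vehicle RNA on 24 two-colour Agilent arrays, 4 per compound. The deposited scanner files hold spot intensity values from Agilent Feature Extraction 9.1.3.1, per the file headers and the submitters' processing notes. The authors' deposited series table holds log2 ratios of treated over vehicle, a scale and direction read from its match to the scanner ratios; its column medians were -0.01 to 0.08, and its centring is not given in the sources used here. The scanner's LogRatio is log10 of red over green, per the file headers.

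Mean intensity and median local background were corrected with normexp (offset 50), after local backgrounds over 100 units above an array's median were set to that median. This touched 16 spots of Hexachloroethane rat 2, 5 of monuron rat 4 and 1 of Tetracycline hydrochloride rat 1, and was added after normexp had failed on the first of these arrays. Arrays were loess normalized, control and outlier spots were left out, and the 2 copies of a probe were averaged. Probes were kept when well above background in 1 dye on all 4 arrays of a compound. limma 3.58.1 in R 4.3.3 fitted 1 mean per compound (18 residual degrees of freedom), with Benjamini-Hochberg adjustment over 16085 probes within a comparison. Replicates are separate rats. Classes were compared with compound as a random block. The fit was tested on simulated data. Gene names came from the files, updated through RefSeq: of 21900 probes, 6176 were named by a present symbol, 1918 through a former one and 902 by their RefSeq record.

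Every member probe is described; a listed gene is represented by its brightest kept probe, with called list genes of the largest change and set transporters named, and the 5 genes of highest r per member. The members and lists were chosen with earlier results of these data known. Alternatives were median centring, scanner ratios, the series table, other backgrounds and offset, no filter, 1 probe per gene, eBayes with trend, leaving out each rat, and a replicate block. The number of arrays limits the precision.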

Additional observations from a re-analysis of the deposited data

Results flagged for a closer look

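Among 60 groups of 4 rats (10 member probe IDs, 6 compounds), 2 held a rat whose gap to its nearest neighbour was above Dixon's critical value. At the level used, chance alone flags about 5% of groups. Abcb1a probe 668 read -0.73 in Hexachloroethane rat 4, where the other 3 rats read -0.21 to -0.16. Abcb1 probe 4846 read 2.09 in monuron rat 4, where the other 3 rats read 1.97 to 1.99.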

How the results depend on the processing

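The 15 called increases of Abcc3 and Abcb1 were recomputed under alternatives giving 209 values, of which 206 kept direction and call, 3 lost the call and 0 reversed. Of 619 values of uncalled changes, 580 kept their direction and stayed uncalled, 22 passed the call and 17 reversed. The values in these counts are not independent. Without the filter, with 1 probe per gene or with eBayes with trend, the log ratio of a probe stays the same. Fits that leave out a rat share most of their rats. The Abcb1 increases were called on probes 14846 and 4846, which share all their letters and so repeat the same measurement. Median centring took Abcc3 probe 702366 below 2-fold under 1-Amino-2-methylanthraquinone (0.84), monuron (0.76) and 1,2-Dichlorobenzene (0.92) and turned it under Tetracycline hydrochloride (-0.017). It turned Slco1a4 under 1,2,3-Trichloropropane, monuron and Tetracycline hydrochloride. The values were -0.52, -0.46 and -0.24 on 14183, -0.52, -0.45 and -0.24 on 4183, and -0.50, -0.39 and -0.14 on 700851. With it 1-Amino-2-methylanthraquinone went beyond 2-fold on 14183 (-1.299), 4183 (-1.278) and 700851 (-1.04). Hexachloroethane did so on 4183 (-1.010). Median centring turned Abcb1a probe 704549 to 0.28, 0.70 and 0.17 under Hexachloroethane, 1,2,3-Trichloropropane and 1-Amino-2-methylanthraquinone. The cause was not tested. The mean over both Abcc3 oligos passed under 1,2,3-Trichloropropane (1.05).

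In the order in which the doses are listed, 225, 200, 426, 301, 324 and 51 probes were called. Median centring gave 600, 727, 1652, 783, 791 and 300.0, the scanner ratio 458, 481, 902, 511, 595 and 152, and the values of the authors' series table gave 457, 471, 880, 504, 582 and 167. Plain background subtraction gave 89 under Tetracycline hydrochloride. With 1 probe per gene, and so fewer probes, the counts were 120, 108, 246, 162, 186 and 33. Leaving out 1 rat gave 31 (without rat 1) to 92 (without rat 4) under Tetracycline hydrochloride. It moved Abcb1a probe 704549 between -0.10 and 0.00070 under Hexachloroethane and between -0.11 and 0.026 under 1,2,3-Trichloropropane, and Slco1a4 probe 4183 between -0.012 and 0.16 there. Of the 2 pairs scanned on 1 day, 1 differed for Abcc3, 2 for Slco1a4, 1 for Abcb1a and 0 for Abcb1.

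The class difference passed without the random block for Abcc3 (0.38, limma adjusted p = 0.00054), Abcb1a (-0.64, 0.00129) and Abcb1 (0.61, 0.0453), a fit that counts rats of 1 compound as independent. With scan day as a fixed block it passed for Abcc3 (0.52, 0.0323) and Abcb1a (-0.59, 0.0214). That fit too counts rats of 1 compound as independent, and its class difference rests on the 2 scan days that held both classes. Within scan day 1 the values were 1.14 for Abcc3, -0.78 for Slco1a4, -0.95 for Abcb1a and -0.10 for Abcb1. Within day 4 they were -0.11 for Abcc3, 0.59 for Slco1a4, -0.23 for Abcb1a and 0.67 for Abcb1.

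Rats with the same number in 2 compounds deviated together (r over 0.1) in 22 of 60 pairs, and 7 of 24 arrays were closest to their own number, so the numbers were not taken to pair the rats. A replicate block changed no call of a member against vehicle, with 226, 200, 426, 303, 324 and 51 probes called. With it 10, 10, 7 and 9 pairs differed for Abcc3, Slco1a4, Abcb1a and Abcb1, 1 more for Abcc3: Hexachloroethane over monuron passed (adjusted p = 0.0417, against 0.0704).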
